A study of Mus musculus with 12 samples.

Results

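The genes described here govern the shape of mitochondria and their removal by autophagy: the mitophagy receptors and sensors Fundc1, Bnip3, Bnip3l and Pink1, the fusion genes Mfn1, Mfn2 and Opa1, and the fission genes Dnm1l, Mff and Fis1. They were taken by symbol from the deposited RNA-seq table, which holds all 10 of them among its 24528 genes. All 10 also lay among the 12212 genes that passed a filter on low values. RNA was measured in bulk gastrocnemius, a calf muscle, of male mice aged 4 months. The 6 KO mice had the genotype Ank2f/f; HSA-Cre+, and the 6 WT mice were littermate controls of genotype Ank2f/f. Both groups therefore carried floxed Ank2 alleles, and Cre, driven by the skeletal alpha-actin promoter that is active in muscle fibres, was present in KO mice alone, so an effect of Cre itself cannot be told apart from that of the deletion. Ank2 encodes ankyrin-B, an adaptor between membrane proteins and the spectrin cytoskeleton. Whole tissue was sequenced, so fewer cells of a type and less RNA per cell cannot be told apart.

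Mitochondria fuse and divide continuously. Mitofusins join the outer membranes of neighbouring mitochondria, OPA1 joins the inner membranes, and DRP1, the product of Dnm1l, is drawn to the surface by adaptors such as MFF and constricts the organelle until it divides. Damaged or surplus mitochondria are taken up by autophagosomes, either through receptors in the outer membrane that bind LC3-family proteins directly or through ubiquitin chains that PINK1 and Parkin build. In skeletal muscle this balance is known for its part in fibre maintenance, exercise adaptation and atrophy.

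Of the 10 genes, Fundc1 alone passed the test, and it was lower in KO muscle. Its level in KO was 79.3% ± 10.3 of the WT mean (SD, n = 6), and all 6 KO libraries lay below all 6 WT libraries. Opa1, Mfn2 and Bnip3 had lower estimates with intervals that did not reach 0, but they did not pass after adjustment over all genes. Bnip3l, Dnm1l, Mff and Pink1 gave estimates within 0.09 of 0 on the log2 scale, and Fis1 was the only gene of the group with a positive estimate. Each difference is the KO mean less the WT mean of the deposited log2 values, from 1 limma fit over the 12212 genes, and a gene passed at a Benjamini-Hochberg adjusted p of 0.05 or less. Over all tested genes, 6.2% were called, 3.08% as lower and 3.12% as higher in KO. The single call among 10 genes stands beside that background. Groups that did not overlap were found for 2.47% of all tested genes, 1.2% with KO lower and 1.27% with KO higher. The median estimate was -0.14 over the 10 genes and -0.01 over all tested genes, and 9 of 10 estimates were below 0, against 52.4% of all tested genes. This count depended on the normalization. After quantile normalization Pink1, Bnip3l, Dnm1l and Mff also lay above 0, at 0.07, 0.06, 0.03 and 0.02, beside Fis1 at 0.18. An unadjusted p at or under 0.05 with a lower estimate was reached by 4 of the 10 genes, against 14.2% of all tested genes (26.0% in either direction).

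The libraries held an estimated 13405230 to 18705727 reads in KO and 12283340 to 16906869 reads in WT. Between 375 and 19149 of them stood behind each value of the 10 genes. Genes above the lowest value of the table numbered 14836 to 15794 in KO and 14746 to 15056 in WT (exact permutation p = 0.00866), and the part of this in the results was not tested. Ank2 itself checked the labels. Its level was 33.1% ± 7.12 of the WT mean in KO, from 26.3% to 44.3%, against 63.4% to 128% in the WT libraries (SD, n = 6; limma difference -1.15, SE 0.14, adjusted p = 0.00088). The tissue label was checked against 9 fast-fibre contractile genes, led by the fast myosin Myh4, which together took 184400 to 208500 CPM (estimated reads scaled to the library total) in KO and 180600 to 214800 in WT. Slow-fibre genes are a small and variable share of this muscle. The 8 slow-fibre markers, led by the slow myosin Myh7, summed to 77.1 to 1148 CPM in KO and 412 to 4519 in WT. All 8 had estimates below 0, with a median of -1.86; none passed the limma test, and 6 had an unadjusted p at or under 0.05. Myh7 was at the lowest value of the table in at least 1 KO library. The part of fibre type in the results below was not tested.

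**Figure D1:**
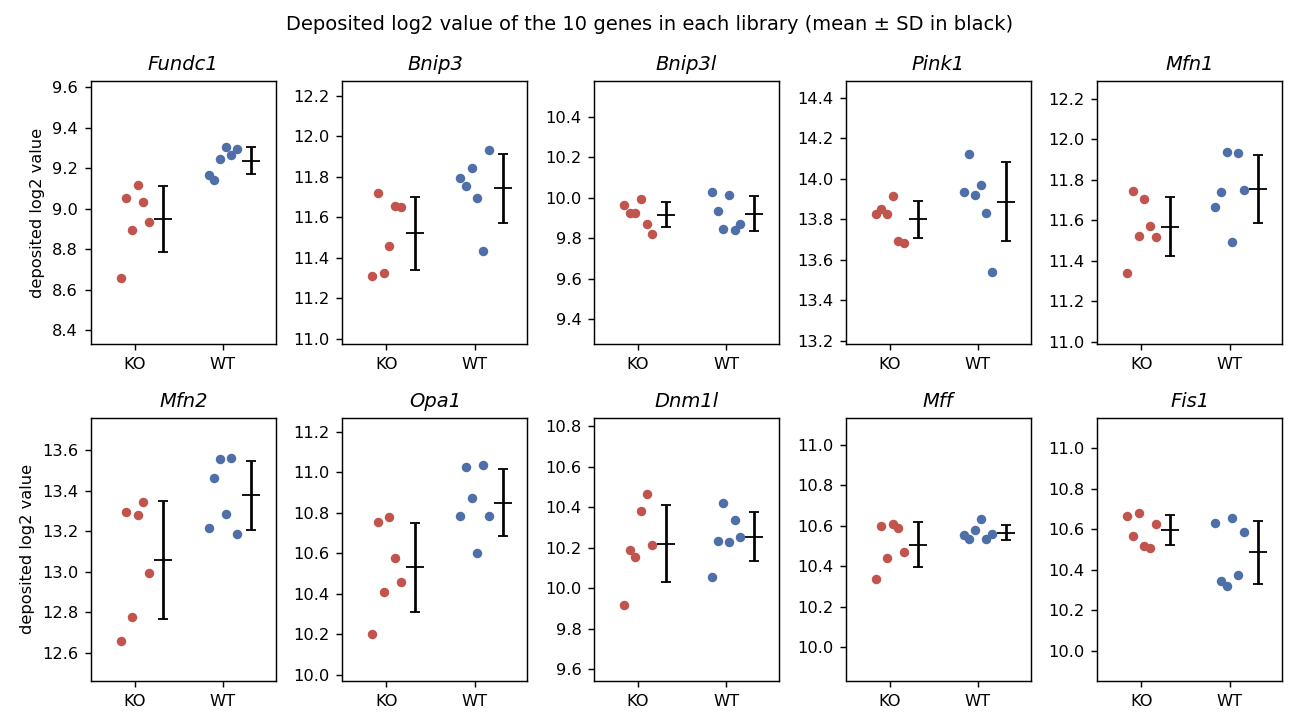
Deposited log2 value of each gene in the 6 KO and 6 WT libraries (points), with the mean and SD of each group in black; every panel spans the same number of log2 units. Only the Fundc1 groups are fully separated, with KO from 8.66 to 9.11 and WT from 9.14 to 9.30.

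FUNDC1 is an outer-membrane receptor that binds LC3 and is known for mitophagy under hypoxia. Fundc1 lies on the minus strand of chromosome X from 17556564 to 17572325 (mm10), shares no exonic base with another annotated gene, and was counted with 375 to 579 estimated reads per library. Its deposited value ran from 8.66 over a median of 8.98 to 9.11 in KO, against 9.14, 9.25 and 9.30 in WT. The highest KO library, KO 4, lay just under the lowest WT library, WT 2, and KO 1 was the lowest of all. The group means were 8.95 ± 0.16 in KO and 9.24 ± 0.07 in WT (SD, n = 6 each), a difference of -0.29 (SE 0.08, 95% interval -0.45 to -0.13, limma adjusted p = 0.0373). The exact two-sided permutation p was 0.00216, the smallest that 6 against 6 libraries can give. Fundc1 stood at rank 480 of the 12212 genes by p. The call depended on single libraries. It ended without any 1 of the 6 WT libraries, and without KO 1, KO 3 or KO 6 (adjusted p from 0.0505 to 0.0835), while the estimate stayed between -0.32 and -0.23 over the 12 omissions.

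**Figure D2:**
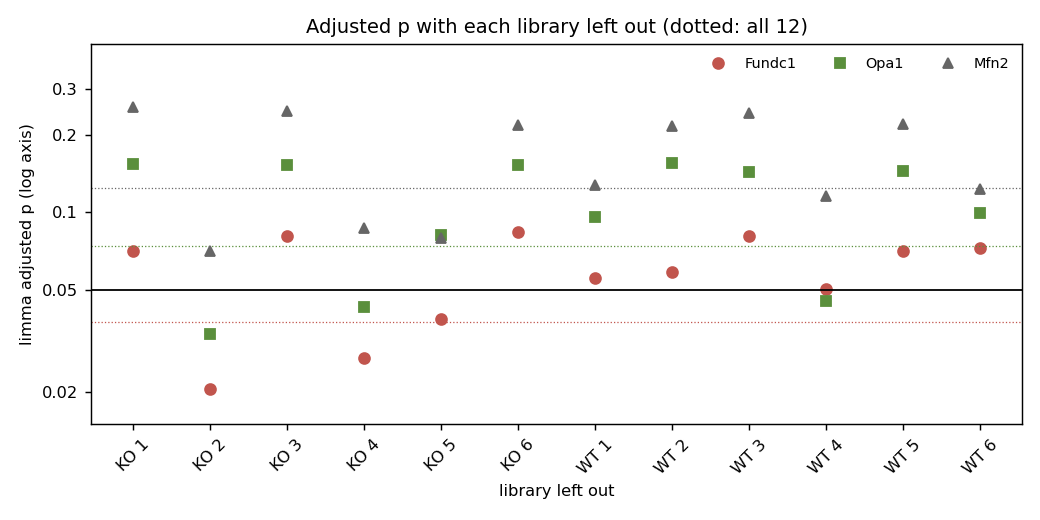
Limma adjusted p (log axis) of Fundc1, Opa1 and Mfn2 with each of the 12 libraries left out in turn; the solid line marks 0.05 and the dotted lines give the adjusted p with all 12 libraries. Fundc1 stays under 0.05 without KO 2, KO 4 or KO 5, and Opa1 comes under it without KO 2, KO 4 or WT 4.

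The genes with the profile most like that of Fundc1 over the 12 libraries were sought by the root-mean-square distance between z-scored values, a measure that is 0 for profiles of the same shape. The 5 nearest were Mapre2 at 0.28, Arhgef6 at 0.30, Tmem117 at 0.31, Rp2 at 0.32 and Acad9 at 0.33, where the median distance over all tested genes was 1.40. Mapre2 encodes a microtubule end-binding protein, Rp2 a regulator of a ciliary GTPase, and Acad9 an assembly factor of respiratory complex I. Their differences were -0.32 for Mapre2 (adjusted p = 0.058), -0.41 for Arhgef6 (adjusted p = 0.0319), -0.56 for Tmem117 (adjusted p = 0.0196), -0.22 for Rp2 (adjusted p = 0.093) and -0.18 for Acad9 (adjusted p = 0.145, all by limma). The profiles share their libraries and their genotype difference.

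BNIP3 and BNIP3L (NIX) are related outer-membrane receptors that bind LC3-family proteins; BNIP3 is known as a target of hypoxia and FoxO signalling, and BNIP3L for clearing mitochondria from maturing red blood cells. The deposited value of Bnip3 ran from 11.31 over a median of 11.56 to 11.72 in KO, against 11.43, 11.78 and 11.93 in WT. The groups overlapped, with WT 4 and WT 5 among the KO values, and all 6 KO libraries lay below the WT median. The difference was -0.22 (SE 0.10, 95% interval -0.43 to -0.01, limma adjusted p = 0.173; exact permutation p = 0.0541), so Bnip3 did not pass. Bnip3l ran from 9.82 over 9.93 to 9.99 in KO, and from 9.84 over 9.90 to 10.03 in WT. Its groups covered nearly the same range, and its difference of -0.01 (SE 0.06, adjusted p = 0.968) had a 95% interval of -0.14 to 0.13. The KO mean of Bnip3l was 99.5% ± 4.72 of the WT mean, and that of Bnip3 was 85.4% ± 10.8 (SD, n = 6). Per transcript length, the Bnip3 level was 5.82 ± 0.93 times that of Bnip3l in KO and 6.76 ± 0.89 times in WT (SD, n = 6 each; exact permutation p = 0.0996). Bnip3 shares 504 exonic bases with an antisense gene, Gm45507, and the library kit is not stated to mark strand, so reads of the pair cannot be told apart there. A pseudogene, Bnip3l-ps, is annotated for Bnip3l, and how reads shared with it were assigned is not given in the sources used here.

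PINK1 is a kinase that gathers on depolarized mitochondria and activates Parkin. Pink1 ran from 13.68 over a median of 13.83 to 13.91 in KO, against 13.54, 13.93 and 14.12 in WT. All 6 KO libraries lay below the WT median, but the lowest value of all 12 was WT 6. Its difference was -0.09 (SE 0.10, 95% interval -0.29 to 0.11, adjusted p = 0.587), and the sign turned to 0.07 after quantile normalization (limma adjusted p = 0.675). Pink1 shares 179 exonic bases with the microRNA genes Mir7019 and Gm27646 on its own strand.

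The promoters were read for the motifs of factors known to act on mitochondrial or hypoxia genes. RefSeq windows (GRCm38.p6) of the 250 bases before annotated starts were found for 9 of the 10 genes, 14 windows in all. Bnip3l had no window and was not searched. Some RefSeq starts lay inside the gene as annotated by GENCODE. They stood 318 bases past its start for Fundc1, 384 for a Dnm1l window and 8802 for a Fis1 window. They were searched on both strands for the core of the HIF element, ACGTG, the NRF1 site (GCGC and TGCGC with any base between them), the ERR half-site AAGGTCA and the FoxO core TGTTTAC. NRF1 is a regulator of many nuclear genes of mitochondria and HIF is the hypoxia factor; ACGTG is also part of the E-box CACGTG. The 3 windows that hold the NRF1 letters, which were not found in those of the other genes, are shown 5′ to 3′ with every match in capitals.
Bnip3, chr7:138909507-138909756, minus strand: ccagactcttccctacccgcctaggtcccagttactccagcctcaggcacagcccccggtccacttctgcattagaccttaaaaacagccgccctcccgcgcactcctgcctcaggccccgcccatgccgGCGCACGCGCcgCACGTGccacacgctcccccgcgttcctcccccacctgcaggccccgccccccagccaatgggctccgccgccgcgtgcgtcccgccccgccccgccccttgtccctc
Pink1, chr4:138326297-138326546, minus strand: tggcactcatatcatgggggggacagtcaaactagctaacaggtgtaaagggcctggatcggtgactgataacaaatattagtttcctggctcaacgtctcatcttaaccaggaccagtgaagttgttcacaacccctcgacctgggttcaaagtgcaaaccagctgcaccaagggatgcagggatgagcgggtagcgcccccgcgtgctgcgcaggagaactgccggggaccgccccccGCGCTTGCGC
Opa1, chr16:29579084-29579333, plus strand: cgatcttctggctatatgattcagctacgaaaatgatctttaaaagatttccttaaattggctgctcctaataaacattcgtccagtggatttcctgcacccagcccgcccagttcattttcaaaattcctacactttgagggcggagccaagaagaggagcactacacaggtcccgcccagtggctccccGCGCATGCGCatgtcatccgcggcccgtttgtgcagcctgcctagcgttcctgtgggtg
In the Bnip3 window the NRF1 letters stand just before a CACGTG that holds the HIF core on both strands. The NRF1 letters were present in 3.74% of all 32851 windows of this length and the HIF core in 16.6%. The HIF core was also present in 1 of the Mfn2 windows, and no window of the 9 genes held the ERR or FoxO letters, which stand in 4.08% and 3.17% of all windows. A match describes letters in a window and is not a measured binding site. Of the genes with the NRF1 letters, Opa1 had an estimate of -0.32, Bnip3 of -0.22 and Pink1 of -0.09. Of those without them, Mfn2 had -0.32, Fundc1 -0.29, Mfn1 -0.19, Mff -0.06, Dnm1l -0.03 and Fis1 0.11. A relation of the letters to the differences was not tested.

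Opa1, a dynamin-like GTPase of inner-membrane fusion and crista structure, had the second smallest p of the group. Its deposited value ran from 10.20 over a median of 10.52 to 10.78 in KO, against 10.60, 10.83 and 11.04 in WT. KO 1, KO 3, KO 5 and KO 6 lay below all WT libraries, while KO 2 and KO 4 lay within the WT range. The means were 10.53 ± 0.22 in KO and 10.85 ± 0.16 in WT (SD, n = 6 each), a difference of -0.32 (SE 0.10, 95% interval -0.54 to -0.10, limma adjusted p = 0.0736; exact permutation p = 0.013). Opa1 would pass without KO 2, KO 4 or WT 4 (adjusted p from 0.0337 to 0.045) and with library quality weights (-0.32, adjusted p = 0.0422), and it did not pass with all 12 libraries.

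Mfn2, the mitofusin that also tethers mitochondria to the endoplasmic reticulum, ran from 12.66 over a median of 13.14 to 13.34 in KO, against 13.19, 13.37 and 13.56 in WT. KO 1, KO 3 and KO 6 lay below all WT libraries and the other KO libraries among them. The difference was -0.32 (SE 0.13, 95% interval -0.59 to -0.06, limma adjusted p = 0.124; exact permutation p = 0.0433). Mfn1, the other mitofusin, ran from 11.34 over 11.55 to 11.75 in KO, and from 11.49 over 11.75 to 11.93 in WT. Its groups overlapped, with KO 1 alone below all WT libraries, and its difference was -0.19 (SE 0.09, 95% interval -0.38 to 0.01, adjusted p = 0.22). Per transcript length, the Mfn2 level was 2.79 ± 0.37 times that of Mfn1 in KO and 3.05 ± 0.27 times in WT (SD, n = 6 each; exact permutation p = 0.201). Of the 45 pairs among the 10 genes, the 3 fusion genes formed the 3 pairs nearest in profile. Their distances were 0.44 for Mfn1 and Opa1, 0.45 for Mfn2 and Opa1 and 0.58 for Mfn1 and Mfn2. Fundc1 and Mff followed at 0.60, and the median over the pairs was 1.14. The 3 fusion genes are also the longest of the 10, and these values were not corrected for exon length. The part of length and of the shared genotype difference in the distances was not tested.

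**Figure D3:**
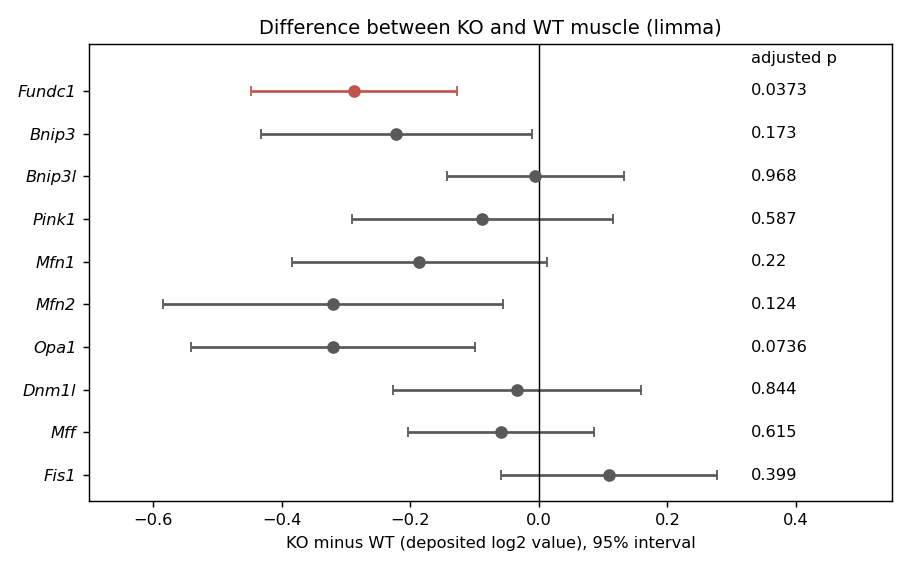
Difference between KO and WT muscle for each gene on the deposited log2 scale (points) with the 95% interval of the limma fit (bars) and the adjusted p at the right; Fundc1, in red, is the gene past the threshold. Opa1 and Mfn2 have estimates as low as that of Fundc1 but wider intervals.

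The 3 fission genes gave estimates nearer to 0, and none passed the test. Dnm1l, the gene of the fission GTPase DRP1, ran from 9.92 over a median of 10.20 to 10.47 in KO, against 10.06, 10.24 and 10.42 in WT. KO libraries formed both ends of the range, KO 1 the lowest and KO 5 the highest, and the difference was -0.03 (SE 0.09, 95% interval -0.23 to 0.16, limma adjusted p = 0.844). Mff, a main adaptor that recruits DRP1, ran from 10.34 over 10.53 to 10.61 in KO, and from 10.53 over 10.56 to 10.63 in WT. Its WT libraries lay close together, KO 1, KO 3 and KO 6 lay below them all, and the difference was -0.06 (SE 0.07, 95% interval -0.20 to 0.09, adjusted p = 0.615). Fis1, a small outer-membrane protein that binds fission factors, ran from 10.51 over 10.60 to 10.68 in KO, and from 10.32 over 10.48 to 10.66 in WT. All 6 KO libraries lay above the WT median, but WT 1, WT 4 and WT 6 stood among the KO values, and the difference was 0.11 (SE 0.08, 95% interval -0.06 to 0.28, adjusted p = 0.399). Per transcript length, the Mff level was 0.48 ± 0.06 of that of Fis1 in KO and 0.55 ± 0.06 in WT (SD, n = 6 each; exact permutation p = 0.104). The signs of Dnm1l and Mff turned after quantile normalization, to 0.03 and 0.02, that of Dnm1l also without KO 1, to 0.03. Dnm1l shares 243 exonic bases with the antisense gene Gm49521 and Mff 195 with C430014B12Rik.

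The libraries did not take part equally. KO 1 gave the lowest value of all 12 libraries for 7 of the 10 genes: Fundc1, Bnip3, Mfn1, Mfn2, Opa1, Dnm1l and Mff. The median deviation of the 10 genes from their WT means was -0.37 in KO 1, -0.18 in KO 3 and -0.15 in KO 6, while it lay between -0.07 and -0.01 in KO 2, KO 4 and KO 5 and between -0.04 and 0.03 in the WT libraries. The same 3 KO libraries had the lowest slopes of value on log2 exon length over 11964 genes, -0.10 in KO 1, -0.07 in KO 3 and -0.06 in KO 6; slopes ran from -0.10 to 0.04 in KO and from -0.04 to 0.08 in WT (exact permutation p = 0.0606). They also had the lowest 95th percentile of deposited values over the tested genes, 11.32 in KO 1, 11.36 in KO 3 and 11.43 in KO 6; it ran from 11.32 to 11.54 in KO and from 11.46 to 11.55 in WT (exact permutation p = 0.0368), and its part in the results was not tested. KO 1 further stood apart in 5 markers of Schwann cells and nerve, which summed to 245 CPM there, 22.9 to 55.4 in the other KO libraries and 49.1 to 125.8 in WT, and the part of nerve RNA in its values was not tested. Fis1, with 1102 exonic bases, is the shortest of the 10 genes, and Opa1, Mfn2 and Mfn1, with 6284, 5072 and 4906, are the longest. With each library corrected for this slope, the difference was 0.00 for Fis1, -0.26 for Opa1 (limma adjusted p = 0.0766), -0.28 for Mfn2 (adjusted p = 0.129) and -0.15 for Mfn1 (adjusted p = 0.266). Fundc1, with 2304 exonic bases, was -0.32 after the correction and stayed past the threshold (adjusted p = 0.0298). Bnip3 (-0.28, limma adjusted p = 0.0984), Pink1 (-0.11) and Mff (-0.10) also moved further from 0 and did not pass. Bnip3l (-0.0047) and Dnm1l (-0.0019) moved nearer to it.

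**Figure D4:**
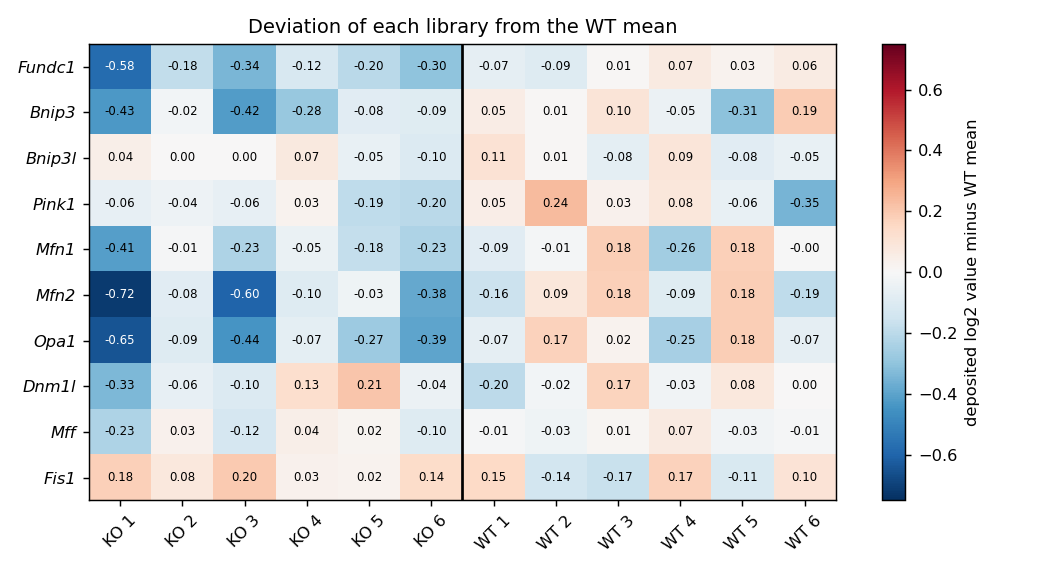
Deposited log2 value of each library minus the WT mean of the gene (colour and printed value), KO libraries left of WT libraries. KO 1, KO 3 and KO 6 carry the lowest values of Fundc1, Mfn2 and Opa1, and the row of Bnip3l stays within 0.11 of 0.

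Levels of different genes were compared as estimated RPKM, which is CPM divided by the exon length in kilobases. Pink1 was the highest of the group, at 355 ± 29.8 in KO and 374 ± 41.8 in WT (SD, n = 6 each). Mfn2 followed with 113 ± 18.5 in KO and 138 ± 19.4 in WT, then Bnip3 with 103 ± 9.47 in KO and 120 ± 15.8 in WT, and Fis1 with 88.6 ± 8.12 in KO and 80.8 ± 8.80 in WT. Mfn2 and Bnip3 overlapped in both groups, and Bnip3 and Fis1 overlapped in KO. Mfn1 and Mff lay together, at 40.2 ± 3.37 and 42.5 ± 2.31 in KO and 45.7 ± 7.19 and 43.8 ± 1.69 in WT. Bnip3l, Opa1 and Dnm1l were near one another, with group means from 14.9 to 17.9 in KO and from 16.5 to 18.6 in WT. Fundc1 was the lowest of the group, at 11.8 ± 1.29 in KO and 14.7 ± 1.06 in WT, and its range overlapped that of Dnm1l in WT and not in KO.

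**Figure D5:**
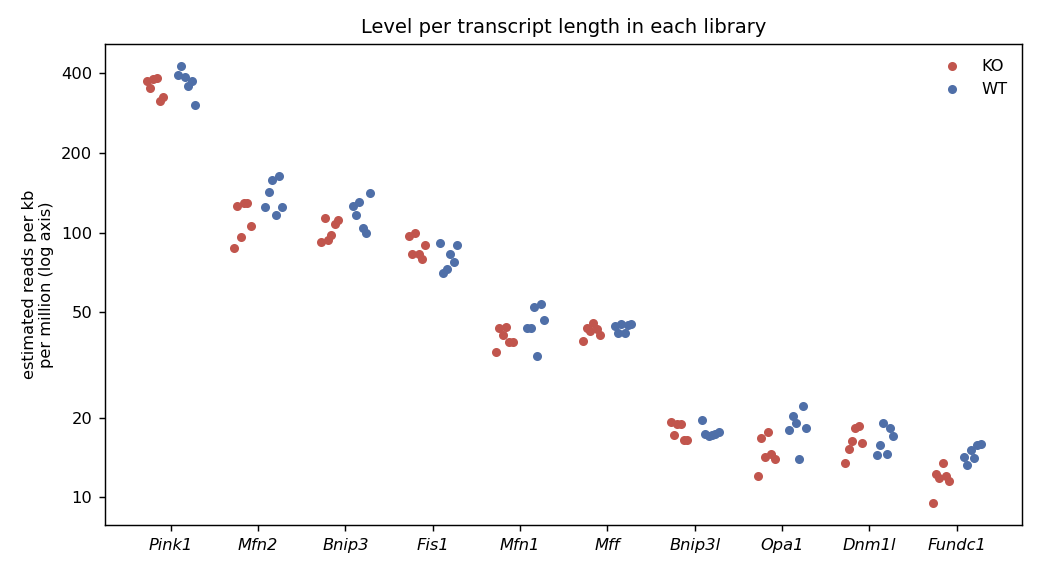
Estimated RPKM (log axis) of each gene in each KO and WT library (points), ordered by the median over the 12 libraries. Pink1 lies above every other gene in every library, and the ranges of Mfn1 and Mff overlap, as do those of Bnip3l, Opa1 and Dnm1l.

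The other genes of the pathway are set beside the 6.2% of all tested genes that were called, 3.08% as lower and 3.12% as higher. In the PINK1-Parkin branch, 2 of 19 genes fell and 1 rose, with a median of -0.01. Rhot2, a Miro GTPase that links mitochondria to motor proteins and is a Parkin substrate, fell by 0.36 (limma adjusted p = 0.0262), at 10.25 ± 0.18 in KO and 10.62 ± 0.10 in WT (SD, n = 6 each). Tomm20, an import receptor of the outer membrane, fell by 0.27 (adjusted p = 0.0463), with KO from 10.13 to 10.39 below WT from 10.41 to 10.69. The polyubiquitin gene Ubb rose by 0.39 (adjusted p = 0.0464), at 12.98 ± 0.18 in KO and 12.59 ± 0.22 in WT. Among fission adaptors and regulators, 1 of 18 rose and none fell, with a median of -0.06; it was Dnm2, a dynamin of membrane scission (0.28, adjusted p = 0.0375), at 9.93 ± 0.15 in KO and 9.65 ± 0.06 in WT.

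Among autophagy adaptors and Atg8 proteins, 1 of 14 fell and none rose, with a median of -0.05. It was Optn, the optineurin gene, an adaptor between ubiquitin-coated mitochondria and LC3, which fell by 0.53 (limma adjusted p = 0.0319), at 10.09 ± 0.34 in KO and 10.62 ± 0.17 in WT (SD, n = 6 each). No gene passed among 15 other mitophagy receptors and regulators (median -0.01), where the autophagy kinase gene Ulk1 gave -0.37 (adjusted p = 0.0506) and Fundc2, a homologue of Fundc1, gave -0.28 (adjusted p = 0.084). Among 15 regulators of fusion and the inner membrane (median -0.05) none passed; the fusion-related gene Msto1 gave 0.27 (adjusted p = 0.0747) and the protease gene Spg7 gave -0.22 (adjusted p = 0.0799). Among 17 genes of hypoxia and FoxO signalling (median -0.09) none passed either; the hypoxia factor gene Epas1 gave -0.25 (adjusted p = 0.108) and the oxygen sensor gene Egln1 gave -0.27 (adjusted p = 0.112). At an unadjusted p at or under 0.05 these 3 lists held 4 of 15, 3 of 15 and 6 of 17 genes, against 26.0% of all tested genes.

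Of 15 genes that stand for mitochondrial content, Tomm20, also in the PINK1-Parkin list, was the only call. Estimates were below 0 for 11 of the 15 and above 0 for 4, with a median of -0.12. Their summed level ran from 10620 to 12940 CPM in KO and from 10960 to 12740 in WT. The calls of all 5 named pathway genes depended on single libraries: leaving out 1 library ended that of Rhot2 in 7 of 12 cases (adjusted p up to 0.0695), Optn in 7 (up to 0.0786), Ubb in 9 (up to 0.111), Dnm2 in 10 (up to 0.0954) and Tomm20 in 10 (up to 0.103). KO 1, KO 3, KO 6, WT 2, WT 3 and WT 6 were common to all 5; WT 5 was added for Rhot2, WT 1 for Optn, KO 5, WT 1 and WT 5 for Ubb, and KO 4, WT 1, WT 4 and WT 5 for Dnm2 and Tomm20. With all libraries kept, the call of Tomm20 also ended with median centring, quantile normalization, no filter, the length correction and a replicate block (limma adjusted p from 0.0522 to 0.0724), that of Ubb with no filter (adjusted p = 0.0518) and that of Dnm2 on reads with a pseudocount (adjusted p = 0.0515 and 0.0521) and with the block (adjusted p = 0.0605).

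Markers of other cell types were examined beside these results, since Bnip3l is high in red-cell precursors and endothelial cells respond to hypoxia. None of 5 tested erythroid genes passed by limma, with 1 lower at an unadjusted p at or under 0.05. All 5 had estimates below 0, with a median of -0.14. The 6 in the table summed to 23.0 to 98.9 CPM in KO and 50.9 to 89.3 in WT, led by Hbb-bs. Of 8 endothelial markers, led by Cdh5, 6 had estimates below 0 and 2 above 0, with a median of -0.22. At an unadjusted p at or under 0.05, 4 were lower and 1 was higher. Flt1 alone passed and fell by 0.50 (limma adjusted p = 0.0347), and their sum was 225 to 378 CPM in KO and 261 to 369 in WT. All 7 markers of smooth muscle and pericytes, led by Rgs5, had estimates below 0, with a median of -0.32 and 4 at an unadjusted p at or under 0.05. Myh11 alone passed and fell by 0.54 (adjusted p = 0.0418), and their sum was 295 to 534 CPM in KO and 375 to 588 in WT.

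The remaining marker lists gave 2 calls, where 6.2% of all tested genes were called. None of 7 macrophage markers (led by Lyz2) passed by limma, with 1 lower and 1 higher at an unadjusted p at or under 0.05. Their estimates were above 0 for 6 and below 0 for 1, with a median of 0.11. Their sum was 24.2 to 67.8 CPM in KO and 18.9 to 78.3 in WT. None of 6 fibroblast markers (led by Dcn) passed, with 0 at that unadjusted p. All 6 had estimates above 0, with a median of 0.20, and their sum was 325 to 604 CPM in KO and 234 to 627 in WT. Of the 5 Schwann-cell and nerve markers none passed, with 0 at that p, 5 estimates below 0 and a median of -0.15. Of 4 adipocyte markers Adipoq fell by 0.34 (adjusted p = 0.0429), while Fabp4, the highest, gave 0.01. Their estimates were below 0 for 3 and above 0 for 1, with a median of -0.14. At that unadjusted p 2 were lower and 0 higher. The sum of the 6 in the table was 84.6 to 147 CPM in KO and 82.0 to 158 in WT. Of 5 satellite-cell markers Cdh15, the highest, fell by 0.37 (adjusted p = 0.0341). The median of the 5 was 0.06, and 3 had estimates above 0. The summed level of the 6 in the table did not overlap, at 30.2 to 33.3 CPM in KO and 35.2 to 38.9 in WT. Cdh15 weighs most in this sum, and its own deposited values overlapped, at 8.289 to 8.809 in KO and 8.671 to 9.055 in WT. Flt1, Myh11 and Adipoq were named after their values were seen. The part of these cell types in the differences above was not tested.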

How the data were processed

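Poly-A RNA from the gastrocnemius of 6 KO and 6 WT mice was made into NEBNext Ultra libraries and sequenced in paired ends, per the labels' protocols, which name no step that marks strand. Reads were handled with fastp, STAR and featureCounts on mm10, per the submitters' processing notes; no annotation or normalization is stated in the sources used here. The authors deposited 1 log2 value per gene and library, with a shared lowest value of 5.57; the log base was read from the values, which have the shape of a variance-stabilizing transformation, which compresses differences of low genes.

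The transformation was inverted in closed form, and the step between low values was taken as 1 read; between 91.8% and 95.0% of low values then lay within 0.1 of a whole number. These estimated reads served the filter (at least 10 in at least 6 libraries), depth, percentages and levels per length, not the main test. The fit was limma 3.58.1 (R 4.3.3) with trend and robust moderation on the deposited values. Single values were tested by exact two-sided permutation. Exon lengths (union of basic transcripts) and positions are from GENCODE M21, and 98.0% of tested genes had a length.

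Members and lists were chosen with earlier results of these data known. Named were the 10 genes, Ank2, up to 4 called genes of each pathway list by p or otherwise the 2 smallest p, the 5 nearest profiles of a called member and the highest marker of each cell type; 1 marker is not reported here. Each library is labelled as a separate mouse. PCR copies cannot be told from molecules. Alternatives covered scaling, filter, variance model, weights, pseudocounts of 1 and 0.1 CPM, a length correction, a replicate block and leaving out each library in turn.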

Additional observations from a re-analysis of the deposited data

How the results depend on the processing

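Fundc1 kept its direction under all 22 alternatives and its call under the 10 that kept all libraries (-0.32 to -0.26, limma adjusted p from 0.0283 to 0.0415); with 1 library left out it ranged from -0.32 to -0.23. Leaving out 1 library gave -0.37 to -0.25 for Opa1, 0 to 2 members called lower, 88 to 833 tested genes called lower and 106 to 682 higher (376 and 381 with all 12). It gave 0 to 1 for fusion regulators lower and 0 to 1 higher, 0 to 3 for fission regulators lower and 0 to 1 higher, 0 to 3 for the PINK1-Parkin branch lower and 0 to 2 higher, 0 to 2 for other mitophagy genes lower and 0 to 1 higher, 0 to 2 each for autophagy adaptors and for hypoxia and FoxO genes lower, and 0 to 1 for mitochondrial content lower. Quality weights called 2 members lower, with Opa1 at -0.32, and 614 tested genes lower; they called 1 fusion regulator and 2 PINK1-Parkin genes higher and 1 other mitophagy gene lower. Median centring and quantile normalization each called 1 PINK1-Parkin gene lower, 2 higher and 0 of mitochondrial content. Without a filter these were 1, 0 and 0, and with the length correction 1 PINK1-Parkin gene and 0 of mitochondrial content were lower. With either pseudocount on scaled reads, 0 fission regulators were higher. Deviations of same-numbered KO and WT libraries correlated from -0.36 to 0.29, and 2 of 6 pairs lay over 0.1. Of the 6 KO libraries, 2 correlated best with the WT library of their own number. So few correlations cannot decide whether the replicate numbers pair the mice. With a replicate block, Fundc1 stayed at -0.29 (adjusted p = 0.039), 456 genes were lower and 357 higher, 0 fission regulators were higher, and 1 other mitophagy gene, 2 autophagy adaptors and 0 of mitochondrial content were lower. Estimates near 0 changed sign: under quantile normalization Pink1 gave 0.0674, Bnip3l 0.0563, Dnm1l 0.0346 and Mff 0.01845; Bnip3l gave 0.00528 with median centring, 0.0130 and 0.0132 with a pseudocount of 1 and 0.1, and -0.0222 to 0.0162 with 1 library left out, where Dnm1l gave -0.0827 to 0.0264. The cause was not tested.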
